A study of Canis lupus familiaris with 13 samples.

Results

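The genes described here are the molecular chaperones and protein folding genes of the dog heart on an Affymetrix canine expression array: the genes whose array symbol begins with HSP (other than HSPB7 and HSPG2, which the choice left out), DNAJ, PDIA or BAG followed by a number, or CCT followed by a digit from 2 to 8, which takes in CCT8L2. A probe set, a group of short oligonucleotides that reports 1 transcript, was kept where the array annotation gave it exactly 1 symbol, and each gene was represented by its probe set of highest mean signal over the 13 arrays. The choice gave 51 genes with 87 probe sets, of 6540 genes with 1 symbol on the array. Of the 51 genes, 48 passed a filter on low signal and were tested, among 5240 genes tested in all. DNAJB13, DNAJC17 and DNAJC30 did not pass it.

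Heart tissue from 13 samples was profiled in 4 groups. Control hearts came from mongrel dogs (P1, P4 and P9, n = 3). Hearts with dilated cardiomyopathy (DCM), a disease of enlarged and weakly contracting ventricles, came from Dobermans (K, L and R, n = 3) and from Boxers (1 to 4, n = 4). The remaining hearts came from mongrels with pacing (LV01, LV02 and LV04, n = 3), in dogs a known way of bringing on heart failure. No genetic change and no drug is named for any group, and age, sex, disease stage, chamber and the rate and length of pacing are not given in the sources used here. All controls and paced dogs were mongrels, so breed and disease cannot be told apart in the Dobermans or in the Boxers. The labels do not say that the samples of a group came from separate dogs. The p-values rest on 1 spread between samples pooled over the 4 groups, and do not measure the spread of the Dobermans alone. The mean correlation of a sample's log2 signals with the rest of its group was 0.866 to 0.886 in Dobermans and 0.950 to 0.965 in the other groups.

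Chaperones bind unfolded or partly folded proteins and help them reach, or regain, their working shape. HSP70 proteins do this in cycles of ATP hydrolysis, which J proteins (the DNAJ genes) start and nucleotide exchange factors, among them the BAG and HSP110 proteins, complete, while HSP90 proteins act later on selected clients. Small heat shock proteins hold unfolded proteins without ATP, the CCT ring encloses newly made actin and tubulin, and the endoplasmic reticulum and the mitochondria have folding machines of their own. Heart muscle works under constant mechanical load and is known for high levels of small heat shock proteins, and in humans inherited changes in BAG3 and in DNAJC19 cause dilated cardiomyopathy.

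The arrays differed in ways that bear on the results. The signal of 3' GAPDH probes over that of 5' probes, a measure of RNA integrity, was between 0.967 and 1.09 on 11 arrays, 2.10 in Doberman L and 3.62 in Doberman R; Doberman K was at 1.08. The same ratio for actin did not set L apart: on the log2 scale it was -1.92 in L and -1.90 in K, -1.97 to -1.56 in Boxers and -3.17 to -2.34 in controls, and only R, at -0.085, stood above the rest. The median signal of an array was 142.5 to 146 in controls and 132 to 146 in Boxers, 160.3 in Doberman K, 220 and 234 in Dobermans R and L, and 208 to 219 in the paced hearts. Signal from RNA spiked into the hybridization was 12687 to 17414 on the paced arrays, 11260 in Doberman L, 6631 in R and 3261 in K, 3310 to 4134 on the Boxer arrays and 2886 to 4698 on the controls. Of 11 cardiomyocyte markers 10 were on the array, with a summed signal of 211303 to 308677 in controls, 233362 to 470385 in Dobermans, 216060 to 243335 in Boxers and 185576 to 209653 in paced hearts; no marker was at 0 on any array. In whole tissue, fewer cells of a type and less RNA per cell cannot be told apart. The part of these values in the results was not tested, except where a measurement is given.

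**Figure D1:**
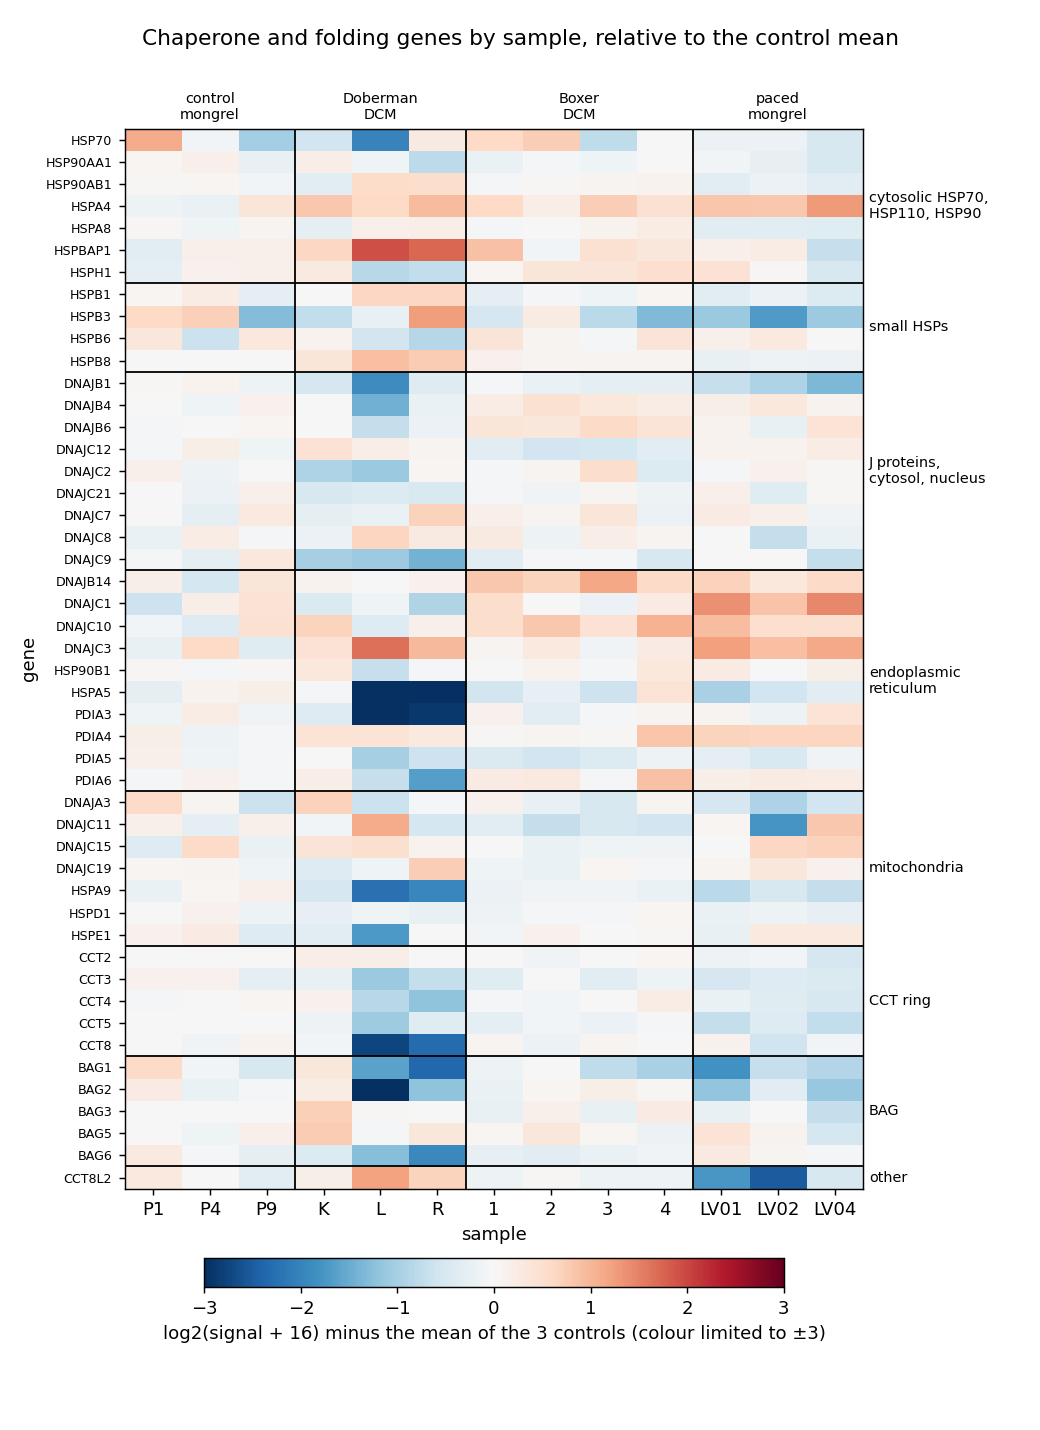
Heat map of the 48 tested genes (rows, by family and compartment) in the 13 samples (columns, by group). Colour gives log2(signal + 16) minus the mean of the 3 controls, limited to 3 in either direction. Dobermans L and R hold the deepest falls, among them HSPA5, PDIA3 and CCT8, while Doberman K and the 4 Boxers stay nearer to the controls.

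In the Doberman hearts 10 of the 48 genes changed: 3 rose over the controls and 7 fell at an adjusted p below 0.05, from limma over all tested probe sets, when 11.9% of all genes rose and 14.1% fell. The members' share, 6.25% for rises and 14.6% for falls, was thus under the background for rises and close to it for falls. In the Boxers no member passed, 3 had an unadjusted p below 0.05 in limma (8.51% of all genes did), and of all genes 0.0191% rose and 0.0382% fell. In the paced hearts 3 rose and 1 fell, against 5.19% and 4.05% of all genes. Between the 2 breeds with DCM, 4 members were higher and 12 lower in Dobermans, when 16.8% of all genes were higher and 17.4% lower. Dobermans were higher than paced hearts for 4 members and lower for 5 (13.6% and 11.1% of all genes), and Boxers were higher than paced hearts for 1 and lower for 2 (5.84% and 8.38%).

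**Figure D2:**
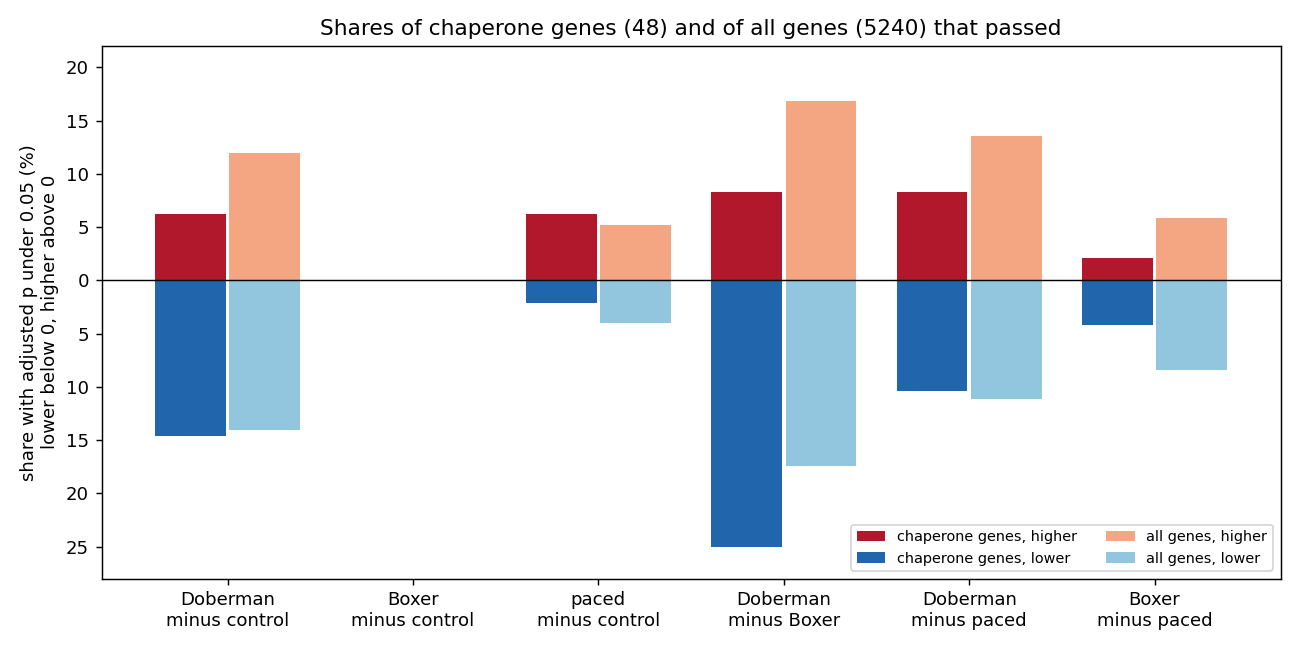
Share of the 48 chaperone genes (dark bars) and of all 5240 genes (light bars) with an adjusted p under 0.05, in percent, for each of the 6 comparisons; rises are drawn upwards and falls downwards from 0. Lower members in Dobermans against Boxers reach 25%, the tallest bar, and the Boxers show almost none of either kind against controls.

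As a group the members shifted little. The median log2 difference over the 48 genes was -0.22 in Dobermans, 0.01 in Boxers and -0.19 in paced hearts against controls, where all genes had 0.04, -0.02 and -0.04. Between Dobermans and Boxers the median was -0.30, with 0.04 over all genes. Comparisons with the same controls share those 3 samples and are not independent of each other.

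The endoplasmic reticulum folds secreted and membrane proteins. On the probe sets of highest mean signal, genes of this compartment held the largest falls in the Dobermans. HSPA5, the HSP70 of this compartment (BiP), had signals of 2447.5, 3235 and 3415 in controls P1, P4 and P9 and of 2921, 90.2 and 153 in Dobermans K, L and R. PDIA3, a disulfide isomerase for glycoproteins, read 875, 1127 and 898 in the controls and 727, 34.8 and 114 in the Dobermans. In both genes Dobermans L and R lay far below every other sample, while K lay inside the control range for HSPA5 and just under it for PDIA3. The fitted log2 difference (of signal + 16, given throughout as value ± SE) was -3.01 ± 0.85 (adjusted p = 0.0246) for HSPA5, 8.05-fold lower, and -2.52 ± 0.64 (adjusted p = 0.0172) for PDIA3, 5.74-fold lower. Against Boxers the differences were -2.76 ± 0.79 (adjusted p = 0.0193) and -2.48 ± 0.60 (adjusted p = 0.0103). Boxers read 2045, 2520.5, 1939 and 4012 for HSPA5 and 1044, 760.2, 944.5 and 1021 for PDIA3, and paced hearts 1533, 2013 and 2379 and 1009.7, 867 and 1289. Boxer signals thus overlapped the controls for both genes, and the paced hearts lay below the controls for HSPA5 only, at -0.62 ± 0.85 (adjusted p = 0.668).

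Not all members of this compartment followed HSPA5 and PDIA3. DNAJC3, a J protein of the lumen that also restrains the stress kinase PERK, read 215, 395 and 194 in controls, 353, 832 and 518 in Dobermans and 622, 490.4 and 580.5 in paced hearts. All 3 paced hearts lay above every control, and Dobermans L and R did too, with K between the controls. DNAJC3 rose in Dobermans by 1.02 ± 0.31 (adjusted p = 0.0317) and in paced hearts by 1.09 ± 0.31 (adjusted p = 0.0351), 2.03-fold and 2.13-fold. Boxers, at 273, 316, 235 and 306, lay below both, with 0.89 ± 0.29 (adjusted p = 0.0302) for Dobermans over Boxers and -0.96 ± 0.29 (adjusted p = 0.0355) for Boxers against paced hearts. Its second probe set gave 0.29 (adjusted p = 0.345) in Dobermans and 0.55 (adjusted p = 0.134) in paced hearts. Both rises missed the threshold after quantile normalization, at 0.87 (adjusted p = 0.062) in Dobermans and 0.93 (adjusted p = 0.0722) in paced hearts, and after median centring, at 0.58 in each (adjusted p = 0.121 and 0.116).

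DNAJC1, a J protein of the reticulum membrane, changed in the paced hearts. Its signals there were 464, 319.9 and 492.5, against 105, 199 and 235.5 in controls, 122, 155 and 84.7 in Dobermans and 254, 168, 149.6 and 204 in Boxers. The paced samples stood above all 10 others. The rise over controls was 1.22 ± 0.32 (adjusted p = 0.0271), and both other groups were lower than paced hearts, Dobermans with a difference of -1.70 ± 0.32 (adjusted p = 0.00322) and Boxers with one of -1.07 ± 0.30 (adjusted p = 0.0263). These are low signals. The rise over controls was 0.94 (adjusted p = 0.0807) after quantile normalization and 0.71 (adjusted p = 0.104) after centring each array on its median.

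Of the remaining members of the reticulum, PDIA4, a further disulfide isomerase, read 1093, 877 and 953 in controls and 1539, 1520.2 and 1513.5 in paced hearts. The paced samples lay apart above the controls, but the difference of 0.64 ± 0.21 (adjusted p = 0.0618) did not pass. PDIA6, a disulfide isomerase that works with HSPA5, read 1351, 717 and 359 in Dobermans and 1395, 1432, 1123 and 2158 in Boxers; K lay among the Boxers and L and R below them, and it was lower in Dobermans than in Boxers, with a difference of -1.06 ± 0.33 (adjusted p = 0.0274). DNAJB14, a membrane J protein, read 412, 385 and 415 in Dobermans, 673, 615, 873 and 575 in Boxers and 427, 260.1 and 488 in controls. All 4 Boxers lay above every control and every Doberman, and Dobermans were lower than Boxers, with a difference of -0.72 ± 0.22 (adjusted p = 0.0256), while Boxers against controls gave 0.81 ± 0.22 (adjusted p = 0.332). HSP90B1, the HSP90 of this compartment, gave -0.14 ± 0.22 (adjusted p = 0.642) in Dobermans, 0.09 ± 0.21 (adjusted p = 0.974) in Boxers and 0.13 ± 0.22 (adjusted p = 0.728) in paced hearts. Of the 10 members of the reticulum, 1 rose and 2 fell in Dobermans, none passed in Boxers, and 2 rose in paced hearts. Against Boxers 1 was higher and 4 were lower in Dobermans, 10% and 40%, when 16.8% and 17.4% of all genes were. Against paced hearts none was higher and 2 were lower in Dobermans, 20%, when 11.1% of all genes were lower. The median over the 10 in paced hearts was 0.37 as deposited and 0.37 after quantile normalization, but turned to -0.14 after median centring.

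**Figure D3:**
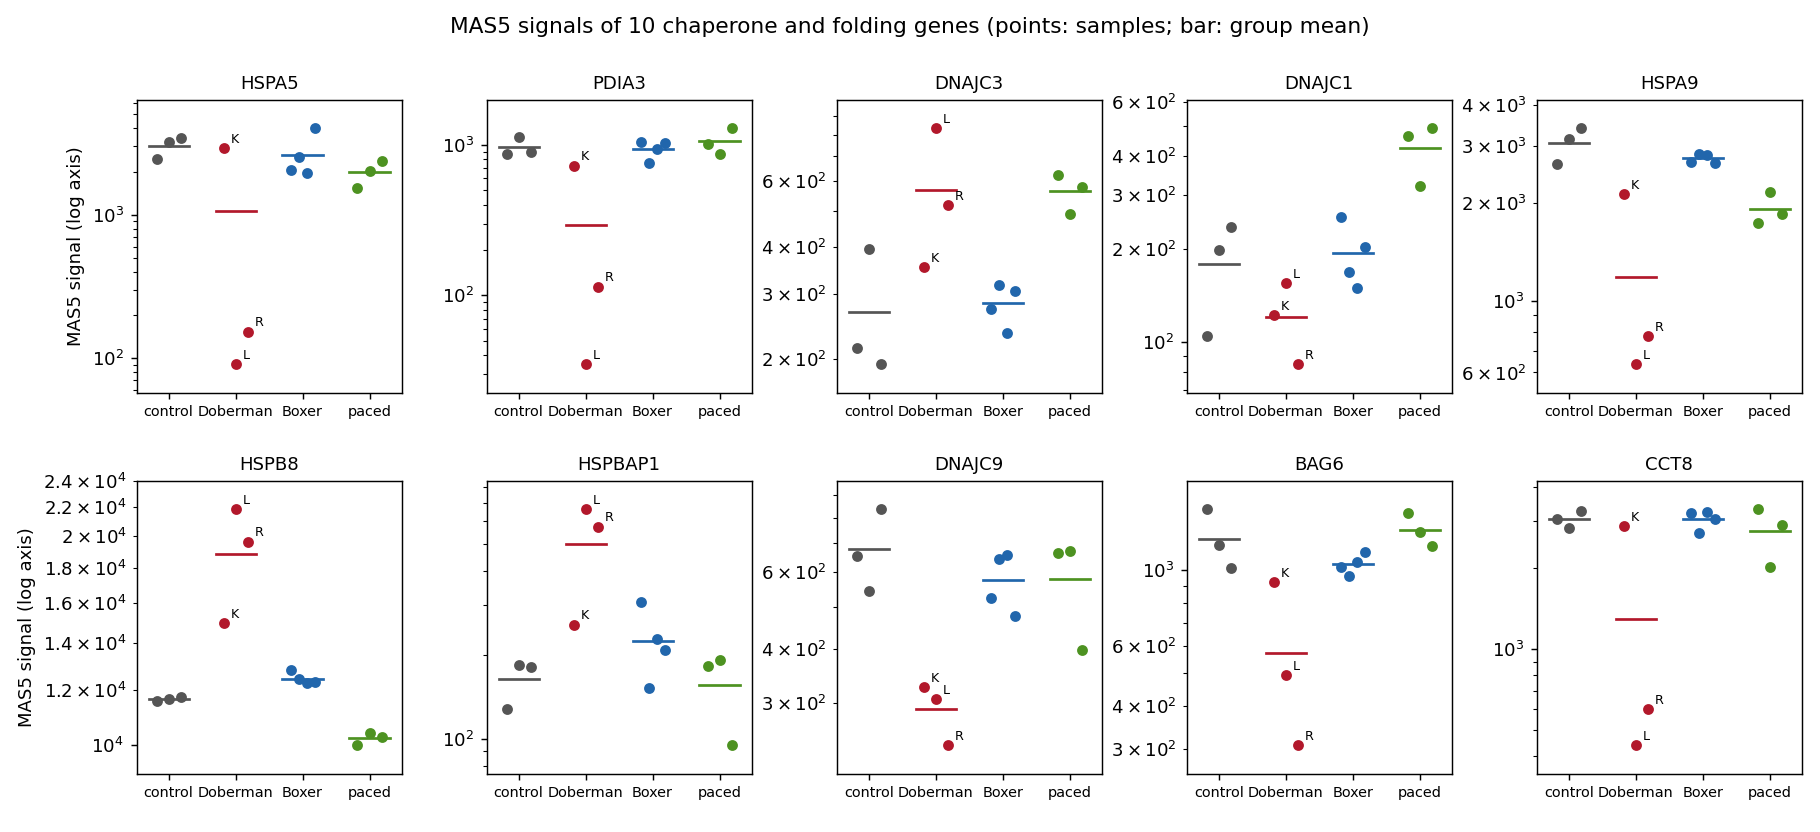
Signals of 10 chaperone genes by group on logarithmic axes; each point is 1 sample, each bar the group mean, and the Dobermans carry their letters. For HSPA5, PDIA3, HSPA9 and CCT8 the points of L and R lie far below K, whereas for DNAJC9 the 3 Dobermans lie together below all controls; DNAJC1 and DNAJC3 are high in the paced hearts.

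Among mitochondrial members HSPA9, the HSP70 of the matrix that pulls in imported proteins, fell in the Dobermans. It read 2632, 3148 and 3403 in controls, 2125, 635 and 776 in Dobermans, 2683, 2839.5, 2818 and 2657 in Boxers and 1735, 2169 and 1856 in paced hearts. All 3 Dobermans lay below all controls and Boxers, K far less than L and R, and the paced hearts lay below the controls too. The difference was -1.57 ± 0.33 (adjusted p = 0.00956) from controls, 2.96-fold lower, and -1.42 ± 0.30 (adjusted p = 0.00683) from Boxers; in paced hearts it was -0.67 ± 0.33 (adjusted p = 0.194). A second probe set for HSPA9 gave 0.17 (adjusted p = 0.551) in Dobermans, so the fall was not seen on both.

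The matrix chaperonin gave no call in any comparison on the probe sets of highest mean signal. Another HSPE1 probe set passed in paced hearts against controls and in Boxers against paced hearts. Another HSPD1 probe set passed in Dobermans against controls, Boxers and paced hearts, and its fall from controls is given with the other repeated probe sets. HSPD1, its barrel, read 13313, 14219 and 11882.5 in controls, 10983, 11913 and 11228 in Dobermans, 11751, 12781, 12848 and 13568 in Boxers and 11407, 11799 and 11086 in paced hearts. HSPE1, its lid, read 2372, 2564 and 1638.5 in controls and 1732, 645 and 2131 in Dobermans, with L alone far below the rest. Doberman differences were -0.20 ± 0.15 (adjusted p = 0.292) for HSPD1 and -0.68 ± 0.34 (adjusted p = 0.146) for HSPE1. DNAJA3, the J protein partner of HSPA9, spread from 493 to 1173 within the controls and from 499 to 1266 within the Dobermans, and gave -0.01 ± 0.34 (adjusted p = 0.992). DNAJC19, an import motor J protein, gave 0.08 ± 0.24 (adjusted p = 0.811) in Dobermans and 0.19 ± 0.24 (adjusted p = 0.637) in paced hearts. On the probe sets of highest mean signal, 1 of 7 tested mitochondrial members fell in Dobermans and none passed in Boxers or paced hearts.

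The cytosolic HSP70 and HSP90 proteins make up the main folding system of the cell. HSPA8, the constitutive HSP70, read 13513, 12212 and 14091 in controls, 10908, 14751 and 15177 in Dobermans, 12949.7, 13059, 14249.5 and 15522 in Boxers and 10494, 10386 and 10244 in paced hearts. The paced hearts lay below all other samples in this gene, without passing (-0.35 ± 0.17 (adjusted p = 0.18)), and the other groups overlapped. HSP70, the array's symbol for a heat-inducible HSP70, spread 850.4 to 3789 over the controls alone and 422 to 2123 over the Dobermans, so that its difference of -0.77 ± 0.57 (adjusted p = 0.317) lay within the spread. HSP90AA1, the inducible HSP90, gave -0.23 ± 0.23 (adjusted p = 0.443) in Dobermans and -0.27 ± 0.23 (adjusted p = 0.464) in paced hearts. HSP90AB1, the constitutive HSP90, was at 9757, 18073 and 17814 in the Dobermans and 11573 to 12776 in the controls, with L and R above and K below; its difference was 0.26 ± 0.21 (adjusted p = 0.362).

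Also counted with this family were HSPBAP1, HSPA4 and HSPH1, and all 3 passed in some comparison. HSPBAP1 is named for binding the small heat shock protein HSPB1 and is not itself an HSP70, HSP110 or HSP90. It read 128, 183 and 181 in controls and 256, 664 and 573 in Dobermans. Every Doberman exceeded every control, L and R by the most, and HSPBAP1 rose by 1.43 ± 0.37 (adjusted p = 0.0182), 2.69-fold. It was also higher than in Boxers, by 1.03 ± 0.34 (adjusted p = 0.0338), and than in paced hearts, by 1.53 ± 0.37 (adjusted p = 0.0107). HSPA4, of the HSP110 family of exchange factors, read 59.9, 58 and 92.7 in controls and 136, 133 and 188 in paced hearts, among the lowest signals tested. The groups did not overlap and the rise was 0.97 ± 0.28 (adjusted p = 0.0388), but HSPA4 passed the filter on low signal only by its signals in the paced hearts and Dobermans: its mean log2 signal was 6.97 over all arrays, 6.84 without the paced ones and 6.90 without the Dobermans, and the minimum for testing was 6.95. The rise was lost in 8 of the 13 fits without 1 sample and, at 0.41 (adjusted p = 0.385), after quantile normalization. It is counted here but not read as a result. HSPH1, also of the HSP110 family, read 1023, 472 and 501 in Dobermans and 895, 1101, 1109.6 and 1226 in Boxers; K lay within the Boxers and L and R below them, with a difference of -0.77 ± 0.28 (adjusted p = 0.0439) that was lost in 10 of the 13 fits without 1 sample and, at -0.85 (adjusted p = 0.0533), after quantile normalization. Across the 7 members counted with the family, 1 (HSPBAP1) rose and none fell in Dobermans, none passed in Boxers and 1 (HSPA4) rose in paced hearts.

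Of the 4 small heat shock proteins 1, HSPB8, rose in Dobermans. HSPB8 works with BAG3 in clearing damaged proteins from muscle. It read 11577, 11633 and 11728 in controls, 14979, 21852 and 19620.5 in Dobermans, 12816, 12422, 12274 and 12295 in Boxers and 9977.5, 10413 and 10266 in paced hearts. The 4 groups did not overlap on this probe set, the Dobermans standing highest and the paced hearts lowest, and samples lay close together within each group other than the Dobermans. The rise over controls was 0.67 ± 0.16 (adjusted p = 0.0142), 1.6-fold; Dobermans exceeded Boxers by 0.58 ± 0.15 (adjusted p = 0.0133) and paced hearts by 0.86 ± 0.16 (adjusted p = 0.00291). Boxers and paced hearts gave 0.10 ± 0.15 (adjusted p = 0.947) and -0.19 ± 0.16 (adjusted p = 0.468) against controls and did not pass. After median centring the Doberman differences were 0.23 (adjusted p = 0.204) from controls and 0.0693 (adjusted p = 0.688) from Boxers and did not pass either. A second HSPB8 probe set ran the other way in Dobermans and is given with the other repeated probe sets.

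HSPB1, which protects actin filaments under stress, read 24846, 38752 and 38937 in Dobermans and 20354, 22113 and 19067 in paced hearts. Each Doberman lay above each paced heart, by 0.71 ± 0.21 (adjusted p = 0.0267), but against controls, at 26369, 29587.5 and 20389.8, the difference of 0.41 ± 0.21 (adjusted p = 0.148) did not pass. After quantile normalization the HSPB1 difference from paced hearts was -0.12. Beside this, 8 of 10 tested cardiomyocyte markers were also higher in Dobermans than in paced hearts, and their part in it was not tested. HSPB6, a small heat shock protein that is phosphorylated under adrenergic drive, gave -0.44 ± 0.28 (adjusted p = 0.25) in Dobermans, 0.20 ± 0.27 (adjusted p = 0.93) in Boxers and 0.15 ± 0.28 (adjusted p = 0.761) in paced hearts. HSPB3 ranged from 1273 to 5139 within the controls and gave -1.29 ± 0.56 (adjusted p = 0.147) in paced hearts.

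Among the J proteins of the cytosol and nucleus, DNAJC9, a histone chaperone that recruits HSP70, fell in Dobermans. Its signals were 653, 544 and 837 in controls, 327, 307 and 240.3 in Dobermans, 523, 644, 655 and 476 in Boxers and 663, 671 and 397 in paced hearts. The Dobermans were the 3 lowest of the 13 samples, and K fell as far as L. The difference was -1.16 ± 0.25 (adjusted p = 0.0101) from controls, 2.24-fold lower, -0.94 ± 0.23 (adjusted p = 0.0109) from Boxers and -0.92 ± 0.25 (adjusted p = 0.0173) from paced hearts. With K alone in the Doberman group the difference from controls was -0.995 and did not pass (adjusted p = 0.130); the lone sample was then assumed to vary like the other groups.

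In this group 3 J proteins were lower and 1 higher in Dobermans than in Boxers. DNAJB4, a partner of HSP70 in the cytosol, read 4023.5, 1466 and 3446 in Dobermans and 4612.5, 5433, 4943 and 4680.1 in Boxers and differed by -0.84 ± 0.26 (adjusted p = 0.0271). DNAJB6, which keeps proteins from aggregating in muscle, read 518, 307 and 455.5 and 672, 656, 779.6 and 682 and differed by -0.72 ± 0.21 (adjusted p = 0.0194). For both genes all Dobermans lay below all Boxers, L the farthest. The third lower gene was DNAJC9, given above. DNAJC12, in humans a partner of amino acid hydroxylases, was the higher one, with 269.9, 226 and 208.5 in Dobermans and 154, 125, 131 and 152 in Boxers and a difference of 0.68 ± 0.20 (adjusted p = 0.0216). After quantile normalization and median centring the DNAJC12 difference was 0.15 (adjusted p = 0.621) and 0.17 (adjusted p = 0.562). DNAJB1, the main J protein partner of HSP70 under stress, read 511, 537 and 447 in controls, 348, 122 and 378 in Dobermans and 302, 252 and 184 in paced hearts. Both of those groups lay wholly below the controls, but neither -0.92 ± 0.33 (adjusted p = 0.0546) nor -0.99 ± 0.33 (adjusted p = 0.0658) passed. DNAJC2, a J protein bound to ribosomes, gave -0.66 ± 0.28 (adjusted p = 0.0955) in Dobermans. Of the 9 tested members 1 fell in Dobermans and none passed in Boxers or paced hearts.

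In the CCT ring, which encloses actin and tubulin while they fold, 2 of 5 tested subunits fell in Dobermans. CCT8 read 3054, 2829 and 3268 in controls and 2859.6, 439.6 and 599 in Dobermans, and CCT4 read 5015, 5274 and 5461 and 5741, 2937 and 2266.5. CCT3 read 997, 1011 and 764 in controls and 777, 418 and 549.7 in Dobermans. In CCT8 and CCT4 L and R were low and K was not, and in CCT3 K lay just inside the control range. CCT8 fell by 1.72 ± 0.48 (adjusted p = 0.0241), 3.29-fold lower, and CCT3 fell by 0.69 ± 0.22 (adjusted p = 0.0384), while CCT4 gave -0.64 ± 0.26 (adjusted p = 0.0823). The fall of CCT3 was lost in 8 of the 13 fits that left out 1 sample, and its second probe set ran the other way in Dobermans, at 1.13 (adjusted p = 0.0505). Dobermans were lower than Boxers in CCT8, with -1.71 ± 0.45 (adjusted p = 0.0139), and in CCT4, with -0.67 ± 0.24 (adjusted p = 0.0476), and were lower than paced hearts in CCT8, with -1.54 ± 0.48 (adjusted p = 0.0337). The CCT4 difference from Boxers was lost in 12 of the 13 fits without 1 sample and, at -0.45 (adjusted p = 0.137), after quantile normalization. CCT2 and CCT5 gave 0.13 ± 0.15 (adjusted p = 0.525) and -0.52 ± 0.21 (adjusted p = 0.0781) in Dobermans.

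All 5 subunits were below controls in the paced hearts, as deposited and after quantile normalization, with groups apart in 4 of them as deposited. Median centring lowered all genes alike in this comparison, so it could not turn these signs. CCT5 read 3627, 3608 and 3559 in controls and 2201, 2752 and 2145 in paced hearts, and CCT2 read 5331, 5458 and 5395 and 4826, 5084 and 3823. The shifts were small, from -0.61 in CCT5 to -0.18 in CCT8, and none passed; the nearest was CCT5, at -0.61 ± 0.21 (adjusted p = 0.0742). Over all members the paced and control groups stood apart for 7 genes upwards and 14 downwards, when 19.6% and 22.6% of all genes did. A second CCT3 probe set was higher in paced hearts, at 1.97 (adjusted p = 0.00814), and so ran against the first. CCT8L2, a gene like CCT8 of unknown role, read 165, 133 and 101.4 in controls, 27.5, 10.1 and 89.9 in paced hearts, 149, 322 and 216 in Dobermans and 115, 134, 116 and 115 in Boxers. The paced hearts were the 3 lowest, at signals near the bottom of the range, with -1.57 ± 0.44 (adjusted p = 0.0331) against controls and 1.46 ± 0.41 (adjusted p = 0.026) for Boxers over paced hearts. CCT8L2 passed the filter on low signal only with its Doberman, control and Boxer signals. Its mean log2 signal was 6.96 over all arrays, with a minimum for testing of 6.95. It was 6.68 without the Dobermans, 6.89 without the controls and 6.90 without the Boxers. The passing CCT8L2 differences from paced hearts are thus counted here but not read as results.

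BAG proteins release substrates from HSP70 and tie it to degradation or autophagy. BAG6, which guards proteins bound for membranes, read 1513, 1190.5 and 1015 in controls, 924, 492 and 306 in Dobermans, 1022, 966, 1056 and 1131 in Boxers and 1470.1, 1299.5 and 1179 in paced hearts. The Dobermans were the 3 lowest samples, K close to the other groups and R the farthest away. BAG6 fell by 1.21 ± 0.30 (adjusted p = 0.0158) against controls, 2.31-fold lower, and was also lower than in Boxers, with -0.98 ± 0.28 (adjusted p = 0.0186), and than in paced hearts, with -1.31 ± 0.30 (adjusted p = 0.00839). BAG3, the partner of HSPB8, was at 3653, 3581 and 3651 in controls and 5989.9, 3698 and 3663 in Dobermans; K was the highest sample and L and R lay just above the controls, at 0.25 ± 0.24 (adjusted p = 0.419). BAG1, an exchange factor for HSP70, gave -1.21 ± 0.55 (adjusted p = 0.111) in Dobermans and -1.13 ± 0.55 (adjusted p = 0.191) in paced hearts, and BAG2, which restrains the ubiquitin ligase CHIP, gave -1.75 ± 0.75 (adjusted p = 0.0922) in Dobermans. Of the 5 BAG members 1 fell in Dobermans and none passed in Boxers or paced hearts.

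**Figure D4:**
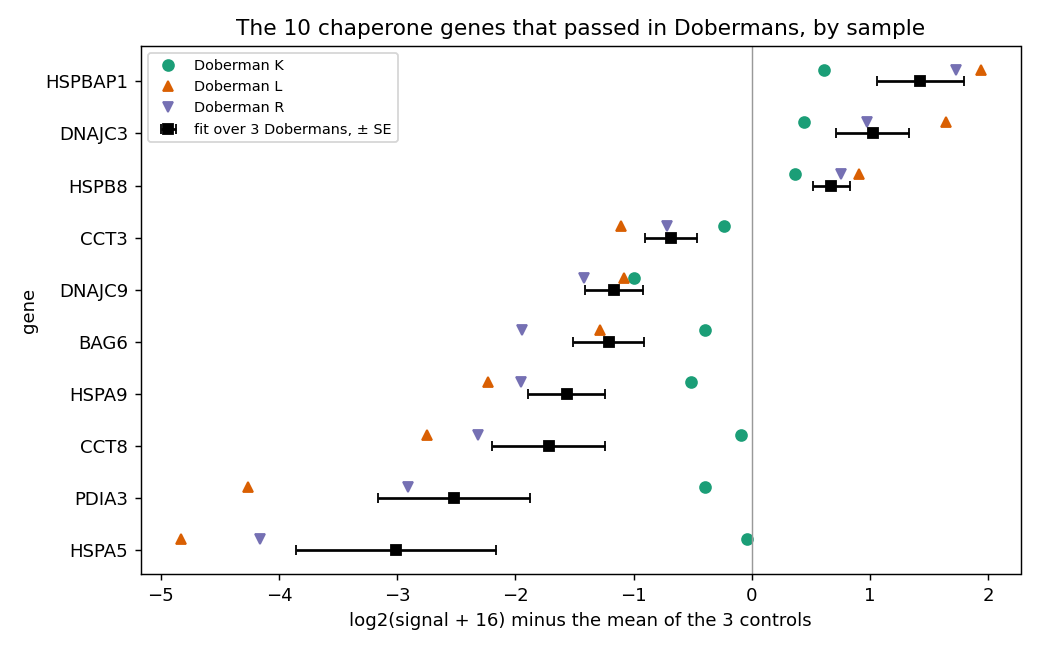
The 10 genes that passed in Dobermans against controls: log2(signal + 16) minus the control mean for each Doberman (coloured points) and the fitted difference over the 3 with its SE (black squares). K lies nearer to 0 than L and R in all 10 genes, and close to them in DNAJC9 alone.

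The 3 Dobermans did not weigh equally in these results. For 11 of the 48 members (22.9%) L and R were both below the control range while K was not, a pattern held by 13.2% of all genes. The opposite, L and R above the controls with K not, held for 6 members (12.5%) and 14.6% of all genes. All 3 Dobermans lay below all controls for 7 members (14.6%) and above them for 5 (10.4%), against 15.7% and 18.3% of all genes. Without L and R no member passed against controls or against Boxers in limma, with 8 and 9 at an unadjusted p below 0.05, when 1.2% of all genes rose and 2.02% fell against controls and 1.09% and 1.37% against Boxers. Against paced hearts 4 members were higher and 3 lower without L and R, and 8.19% and 6.87% of all genes. Without L alone 1 rose and 2 fell against controls, without R 1 rose and 5 fell, and without K 6 rose and 17 fell. Of the 10 calls against controls DNAJC9, HSPA9 and HSPB8 passed in each of the 13 fits that left out 1 sample. HSPA5 and CCT8 lost theirs without any 1 of the 3 controls or without L or R, PDIA3 without P4, L or R, HSPBAP1 without P1, L or R, DNAJC3 without P1, P9, L or R, and BAG6 without P1 or L. With the GAPDH ratio as a covariate, or with only the compared groups in the fit, no member passed against controls, with 6 and 10 at an unadjusted p below 0.05. The ratio moved with L and R, and its part in the falls was not tested beyond these fits.

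Several chaperone genes have more than 1 probe set, and in the Dobermans these did not run together. HSPA8 had 3 tested probe sets, numbered here by falling mean signal. On the second, signals were 15465.5, 18193 and 16307 in controls and 12082, 428 and 1173 in Dobermans, and on the third 13847, 15629 and 14805 and 11912, 1359.9 and 1480.1. L and R were far lower on these, and K was close under the controls, while the first probe set had put L and R slightly above the controls. The Doberman differences were 0.02 (adjusted p = 0.924), -3.16 (adjusted p = 0.0159) and -2.34 (adjusted p = 0.0153).

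HSPB8 was the only member with passing calls of opposite sign in Dobermans. Its first probe set gave the rise described above, the second gave -2.07 (adjusted p = 0.0315) and the third 1.20 (adjusted p = 0.0289). On the second, controls read 8974, 8949 and 8494 and Dobermans 9438.5, 1416 and 674, K above the controls and L and R far below. In HSP90AB1 the 3 probe sets gave 0.26 (adjusted p = 0.362), -0.56 (adjusted p = 0.0745) and -2.17 (adjusted p = 0.0318). HSPD1 gave -0.20 (adjusted p = 0.292) and -2.60 (adjusted p = 0.0185), CCT2 gave 0.13 (adjusted p = 0.525) and -2.13 (adjusted p = 0.0147), and CCT8 gave -1.72 (adjusted p = 0.0241) and -3.62 (adjusted p = 0.017). In each of these genes the falling probe sets were far lower in L and R than in K.

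Among the 19 members with more than 1 tested probe set, 10 (52.6%) had Doberman calls that differed between probe sets, and 12 (63.2%) had differences more than 1 log2 unit apart. Over all genes these shares were 41.2% and 39%. In Boxers against controls 1 of the 19 (5.26%, and 4.34% of all genes) had probe sets that far apart. Of the 48 representing probe sets, 12 carry the suffix _s_at and 1 the suffix _x_at, by which the array marks probes shared between related transcripts, among them those of HSPA8, HSP90AB1, HSPA9 and HSPB8, so signal from close relatives of these genes cannot be told apart there. Over all 75 tested probe sets of the members 5 rose and 15 fell in Dobermans (14.3% and 11.2% of all probe sets), none passed in Boxers (0.014% and 0.028%), and 8 rose and 1 fell in paced hearts (8.47% and 3.74%).

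**Figure D5:**
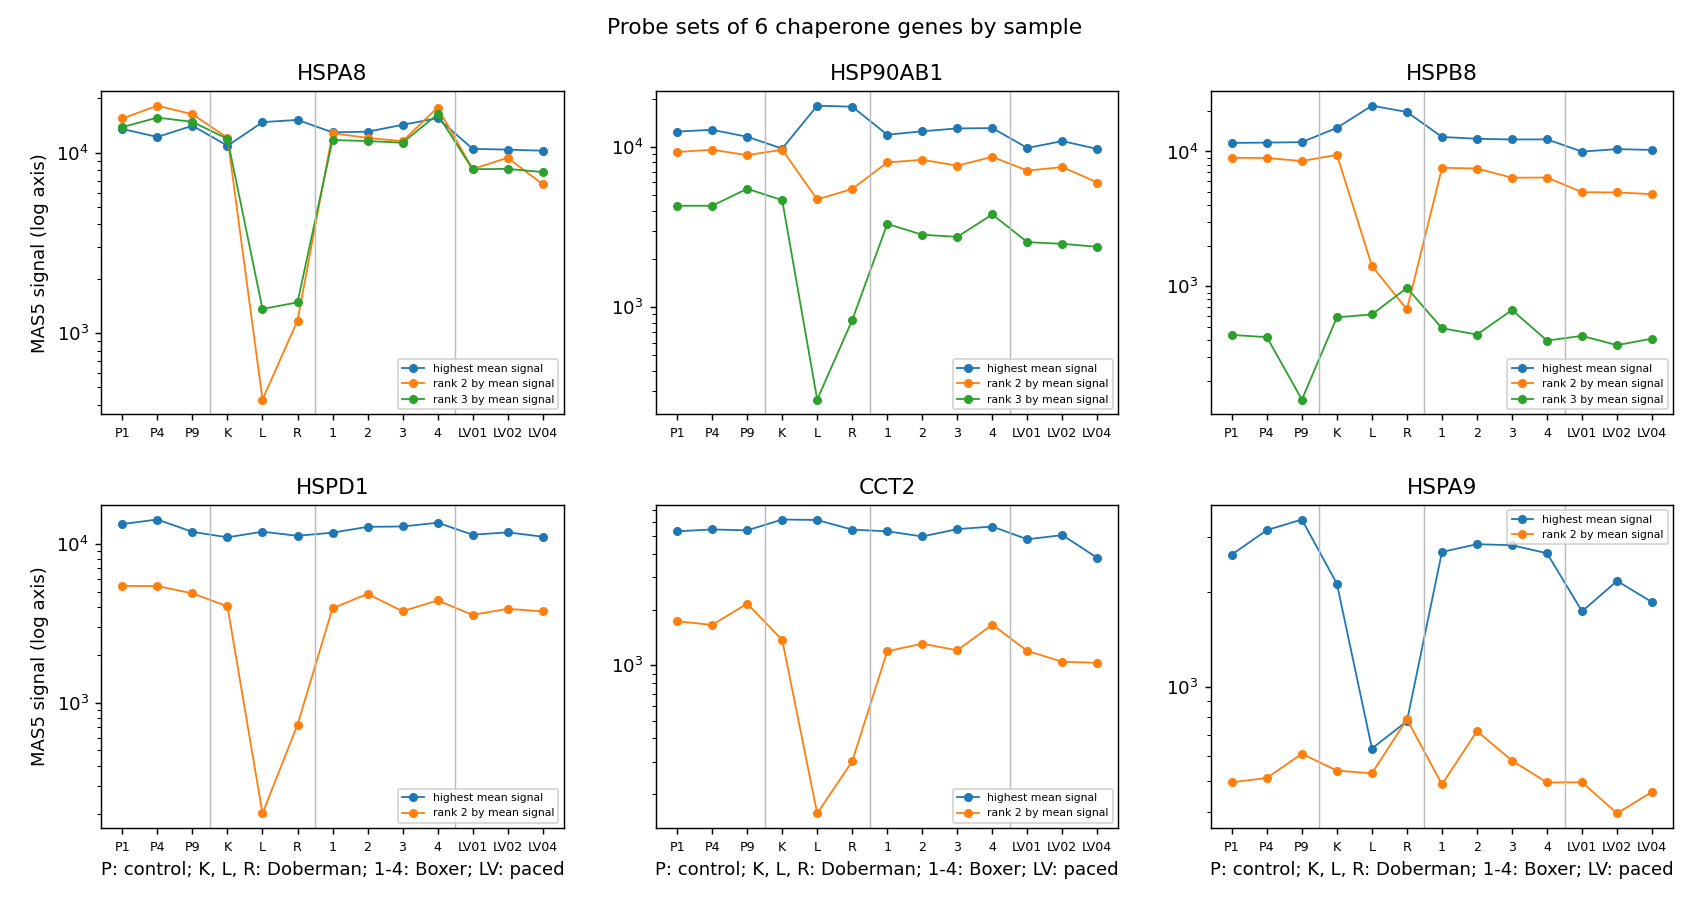
Signals of each tested probe set of 6 genes over the 13 samples, on logarithmic axes; lines join the samples in the order control, Doberman, Boxer and paced. In HSPA8, HSP90AB1, HSPB8, HSPD1 and CCT2 a probe set drops in Dobermans L and R while the highest one does not, and in HSPA9 the highest one drops.

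The 6 members BAG5, DNAJC7, DNAJC8, DNAJC11, DNAJC15 and DNAJC21 passed in no comparison on their probe sets of highest mean signal. Their differences there ran from -0.45 in DNAJC21 to 0.36 in BAG5 in Dobermans, from -0.53 in DNAJC11 to 0.10 in DNAJC7 in Boxers, and from -0.31 in DNAJC8 to 0.44 in DNAJC15 in paced hearts. The second probe set of DNAJC7 fell in Dobermans, at -1.03 (adjusted p = 0.0297). Another BAG5 probe set passed in Dobermans against controls. Another DNAJC15 probe set passed in paced hearts against controls and in Boxers against paced hearts.

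In the Boxers the members with the smallest p upwards were J proteins. DNAJB14 had an unadjusted p of 0.00285 and DNAJC10, a reductase of the reticulum, had 0.0188, with differences of 0.81 ± 0.22 (adjusted p = 0.332) and 0.71 ± 0.27 (adjusted p = 0.573). DNAJB6 followed upwards, at 0.41 ± 0.21 (adjusted p = 0.705). Downwards the nearest were DNAJC12, at -0.43 ± 0.20 (adjusted p = 0.669), PDIA5, a disulfide isomerase, at -0.39 ± 0.22 (adjusted p = 0.754), and HSPB3, at -0.60 ± 0.53 (adjusted p = 0.873). The Boxer and control groups stood apart for 4 members upwards and 4 downwards, when 7.94% and 9.77% of all genes did. Boxers and controls overlapped for HSPA5, PDIA3, HSPA9, CCT8 and BAG6.

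DNAJC3 was the member called in both Dobermans and paced hearts, 2 comparisons that use the same 3 controls. The calls in paced hearts moved with the scaling: 1 member rose and 2 fell after quantile normalization, and none rose and 14 fell after median centring, which moved the median of all genes to -0.55 from -0.04. For Dobermans the same centring gave 1 rise and 15 falls against controls and none and 24 against Boxers, with all genes at -0.40 and -0.47; quantile normalization gave 1 and 10 against Boxers and 3 and 8 against paced hearts. For Boxers against paced hearts centring gave 20 rises and no fall, with all genes at 0.63, and quantile normalization gave 1 and none. The members' own medians after centring were -0.69 in paced hearts and -0.66 in Dobermans against controls, -0.81 in Dobermans against Boxers and 0.76 in Boxers against paced hearts.

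Other genes of the same pathways were drawn from lists and counted in the same way. Of 19 tested cochaperones and heat shock factors, 4 rose and 4 fell in Dobermans, 21.1% each, when 11.9% of all genes rose and 14.1% fell; over the 5 lists together 10.1% of 79 genes rose and 13.9% fell. STIP1, which passes clients from HSP70 to HSP90, read 1675, 1875 and 2115 in controls and 1157, 198 and 120.1 in Dobermans, and ST13, which stabilises the HSP70 cycle, read 3592, 3339 and 4137 and 2454, 327 and 399. Both were lowest in L and R, with K below the controls as well, and STIP1 fell by 2.55 ± 0.54 (adjusted p = 0.0101) and ST13 fell by 2.39 ± 0.52 (adjusted p = 0.0107). SGTB, a cochaperone for membrane proteins, rose by 0.77 ± 0.19 (adjusted p = 0.0155), with all 3 Dobermans, at 1171, 886 and 1129.5, above the controls, at 697, 500.5 and 652.5. HSPB7, a small heat shock protein of heart muscle that the choice of genes left out, rose by 0.82 ± 0.22 (adjusted p = 0.0191). HSF1, the main switch of the heat shock response, also rose, by 0.83 ± 0.23 (adjusted p = 0.0242), and was named here after its value was seen.

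Of 20 tested folding enzymes and stress sensors of the reticulum, 3 rose and 3 fell in Dobermans, 15% each. CRELD1, at 0.94 ± 0.21 (adjusted p = 0.0113), OS9, which marks misfolded glycoproteins for export, at 0.99 ± 0.22 (adjusted p = 0.0116), and EDEM2, a mannosidase of the same route, at 0.62 ± 0.18 (adjusted p = 0.0297), rose. HERPUD1, a stress-induced part of the degradation machinery, fell by 0.67 ± 0.20 (adjusted p = 0.0294). Of 16 genes of mitochondrial import, folding and proteolysis none rose and 3 fell: PAM16, of the import motor, YME1L1, an inner membrane protease, and PMPCB, of the presequence peptidase. PAM16 read 1296, 1389.5 and 1152 in controls and 720.4, 489.9 and 659 in Dobermans, each Doberman below each control, and fell by 1.03 ± 0.19 (adjusted p = 0.00616); the other 2 differed by -1.93 ± 0.44 (adjusted p = 0.0121) and -0.78 ± 0.27 (adjusted p = 0.0458). Among 11 genes of prefoldin and TCP1, TBCB, a tubulin chaperone, rose by 1.15 ± 0.34 (adjusted p = 0.0283) at low signals and TCP1, the first subunit of the CCT ring, fell by 0.72 ± 0.24 (adjusted p = 0.0451). Of 13 peptidyl-prolyl isomerases none passed in limma, with 3 at an unadjusted p below 0.05.

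In paced hearts these lists gave 1 rise and 4 falls, 1.27% and 5.06% of the 79 genes, when 5.19% and 4.05% of all genes rose and fell. CLPB, a mitochondrial disaggregase, read 939, 1194 and 1112.5 in controls and 148, 268 and 159 in paced hearts, against 655, 849, 719 and 886 in Boxers and 1017, 419.8 and 1228 in Dobermans. The paced hearts were the 3 lowest samples, and CLPB fell by 2.44 ± 0.33 (adjusted p = 0.0015), 5.43-fold lower. YME1L1 read 738, 760.3 and 705 in paced hearts and 1630.2, 2224 and 2139 in controls and fell by 1.41 ± 0.44 (adjusted p = 0.0497). PDCL, a cofactor of the CCT ring, fell by 1.19 ± 0.25 (adjusted p = 0.009) and NUDC, an HSP90 cochaperone, fell by 0.71 ± 0.22 (adjusted p = 0.0464). SUGT1, also an HSP90 cochaperone, read 1768, 1739.7 and 1727 in paced hearts and 814, 950.5 and 1152.5 in controls and rose by 0.85 ± 0.25 (adjusted p = 0.0408). The folding enzymes of the reticulum and the isomerases gave no call there, with 3 and 2 genes at an unadjusted p below 0.05. In Boxers against controls none of the 5 lists gave a call, and between 0 and 2 genes of a list had an unadjusted p below 0.05.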

How the data were processed

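Total RNA from 13 dog heart samples was labelled and hybridized to an Affymetrix canine array. The authors made the intensity values with MAS5 before they deposited them, per the submitters' processing notes, which name no version. The deposited values are linear, 1 per probe set, and all arrays share a 2% trimmed mean near 500, a common scaling. Nothing in the sources used here describes further steps. Of 23913 probe sets, 77 controls were left out. Symbols came from the array annotation, which gave 10549 probe sets 1 symbol, 138 several and 13149 none; 3 members' gene IDs were not in the reference gene table, and no symbol changed.

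A pseudocount of 16 was added before taking log2. The 40th percentile of mean log2 (6.95, a signal of 108) was the minimum for testing, which left 14302 probe sets. limma 3.58.1 in R 4.3.3 fitted 1 mean per group over all 13 arrays with 9 residual degrees of freedom and a variance prior that follows the mean signal. P-values were adjusted by Benjamini-Hochberg over all tested probe sets in each of 6 comparisons. Fold changes are on the log2(signal + 16) scale and understate changes of low signals. The number of arrays limits the precision. The steps were tested on simulated data with independent samples and 1 spread per probe set for all groups. That setting lacks the wider spread of the Dobermans, so it does not check calls that rest on Dobermans L and R. The deposited table gives no scan date or batch.

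The members and lists were chosen with earlier results of these data known. Named members were those with an adjusted p below 0.05 (otherwise the 3 of smallest p in each direction), the 2 of highest mean signal in each family, and a set of well-known chaperones; of each pathway list up to 4 passing genes were named. Alternatives were other scalings, pseudocounts and filters, array weights, the GAPDH 3' to 5' ratio as a covariate, fewer samples and other probe sets.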

Additional observations from a re-analysis of the deposited data

Results flagged for a closer look

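In 16 members the Doberman effect differed from the Boxer effect, by limma's adjusted test of the difference between the 2 groups, which is the same as the difference of their effects against the shared controls. HSPA5 (-2.76), PDIA3 (-2.48), CCT8 (-1.71), HSPA9 (-1.42), PDIA6 (-1.06), BAG6 (-0.98), DNAJC9 (-0.94), DNAJB4 (-0.84), HSPH1 (-0.77), DNAJB14 (-0.72), DNAJB6 (-0.72) and CCT4 (-0.67) were lower in Dobermans on the log2 scale. HSPBAP1 (1.03), DNAJC3 (0.89), DNAJC12 (0.68) and HSPB8 (0.58) were higher. Of the 48 members 25% were lower and 8.33% higher, when 17.4% of all genes were lower and 16.8% higher. Breed differs between these groups as well, and without Dobermans L and R none of the 16 passed. CCT4 lost its call in 12 and HSPH1 in 10 of the 13 fits that left out 1 sample.

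Among the 4 Boxers 1 sample stood far from the other 3 in 2 of 48 members. In CCT8L2 the gap of Boxer 2, the highest, to its neighbour was 0.983 of the group's range, though the signals of 115, 134, 116 and 115 lie close together. In PDIA4 the gap of Boxer 4, the highest, was 0.938 of the range, with signals of 986.5, 1021.5, 994 and 1735. Both gaps exceed Dixon's 95% critical value, which chance passes in about 5% of groups of 4.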

How the results depend on the processing

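Some sample names share a number across groups (P1, LV01 and Boxer 1, for example), but the labels do not say that it pairs them. Over the 7 pairs of the same number the deviations from the group means correlated from -0.0128 to 0.055, none above 0.1 (other pairs -0.0889 to 0.073), and paced LV04 correlated more with Boxer 1 than with Boxer 4, so the samples were taken to share only a number. Counts are given as higher and lower members. Leaving out each sample in turn gave 1 to 6 and 2 to 17 for Dobermans against controls (3 and 7 with all samples), 0 and 0 for Boxers against controls, 0 to 4 and 0 to 6 for paced hearts against controls, 1 to 6 and 3 to 21 for Dobermans against Boxers, 3 to 8 and 3 to 17 for Dobermans against paced hearts, and 0 to 7 and 0 to 3 for Boxers against paced hearts. The extremes of 6 and 17, 21, and 8 and 17 came without Doberman K. Against controls, leaving out control P1 gave 1 and 3 for Dobermans and 0 and 0 for paced hearts, and leaving out control P4 gave 3 lower for Dobermans and 1 and 0 for paced hearts. Without paced heart LV01 0 and 0 passed against controls, without LV02 1 and 0, and without LV04 0 higher. A replicate block of that number over the 8 samples concerned, chosen after seeing the data, gave 5 and 11 for paced hearts against controls, 0 and 0 for Boxers against controls and 11 and 3 for Boxers against paced hearts, and the same 8 samples without the block 5 and 11, 0 and 0, and 10 and 3.

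Without Dobermans L and R the counts were 0 and 0 against controls and against Boxers, and 4 and 3 against paced hearts. With the GAPDH ratio as a covariate they were 0 and 0 for Dobermans against controls and against Boxers, 1 and 1 for Dobermans against paced hearts, 4 lower for paced hearts against controls and 3 higher for Boxers against paced hearts. With only the compared groups in the fit they were 0 and 0 for Dobermans against controls, 0 and 3 against Boxers, 0 and 1 against paced hearts, 6 lower for paced hearts against controls and 10 and 4 for Boxers against paced hearts. Median centring gave 1 and 15, 0 and 14, 0 and 24, and 20 and 0 for Dobermans against controls, paced hearts against controls, Dobermans against Boxers, and Boxers against paced hearts. Quantile normalization gave 1 and 2 for paced hearts against controls, 1 higher for Dobermans against Boxers, 8 lower for Dobermans against paced hearts and 0 lower for Boxers against paced hearts. Array weights gave 11 lower for Dobermans and 1 higher for Boxers against controls, 5 and 9 for paced hearts against controls, 9 lower for Dobermans against paced hearts, and 8 and 4 for Boxers against paced hearts. A pseudocount of 1 gave 0 lower for paced hearts against controls and 0 higher for Boxers against paced hearts, and no filter gave 2 in each. A filter at the 70th percentile, which tests fewer genes, gave 0 and 0 for paced hearts against controls and for Boxers against paced hearts, and 2 higher for Dobermans against Boxers and against paced hearts. The second probe set gave 5 higher for paced hearts against controls, 1 higher for Dobermans against Boxers and 5 lower for Boxers against paced hearts. The median over probe sets gave 5 and 11 for Dobermans and 7 higher for paced hearts against controls, and 5 lower for Boxers against paced hearts. For the median a gene was counted where any 1 of its probe sets passed, which can only raise the number of genes called.

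Signs turned in 30 cases in which the main or the changed value passed, 23 of them with another probe set. Turns between values that both did not pass were not counted. The second probe set and the median over probe sets counted as separate cases, so a gene could count more than once. On the second probe set Dobermans against controls gave -2.13 for CCT2, 1.13 for CCT3, -1.03 for DNAJC7, -3.16 for HSPA8, 0.17 for HSPA9 and -2.07 for HSPB8, and the median over probe sets gave -0.998, 0.52, -0.48, -2.34 and -0.56 for CCT2, CCT3, DNAJC7, HSPA8 and HSP90AB1. Against Boxers the second probe set gave -1.67 for CCT2, 0.11 for HSPA9 and -1.72 for HSPB8 and the median -0.76 for CCT2 and 0.44 for CCT3, and against paced hearts the second gave -1.23 for HSPB8. Paced hearts against controls gave 1.97 and 0.59 for CCT3 and 0.77 and 0.30 for PDIA5 on the second and on the median, and Boxers against paced hearts -1.47 and -0.58 for CCT3. Without Dobermans L and R, CCT4 was 0.0987 and HSPA5 0.21 against Boxers and BAG2 was 1.10 and CCT8 0.092 against paced hearts. The covariate gave 0.0542 for CCT4 against Boxers and 1.64 for BAG1 against paced hearts, and quantile normalization -0.12 for HSPB1 against paced hearts. The cause was not tested. DNAJC9, HSPA9, HSPB8 and PDIA3 passed against Boxers in each of the 13 fits that left out 1 sample, and BAG6, CCT8L2, DNAJC1, HSPBAP1, HSPB8 and PDIA3 did so between Dobermans and paced hearts. The filter on low signal was set on all arrays in each of these fits. CCT8L2 passed it only with its Doberman, control and Boxer signals, so its difference is again not read as a result.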

Other observations

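Of the 3 members below the filter on low signal, DNAJB13, a J protein of sperm and cilia, read 107, 122 and 143 in controls, 166, 391 and 236 in Dobermans, 77.1, 91, 39.8 and 56 in Boxers and 41.6, 33.5 and 52.6 in paced hearts. DNAJC30, a mitochondrial J protein, read 132, 69.8 and 99.9, 118, 27.1 and 22, 106, 90.5, 118 and 132 and 23.5, 49.2 and 42.3 in the same order of groups. DNAJC17 read 56.7 to 150.1 in controls, 40.8 to 118 in Dobermans, 29.7 to 186 in Boxers and 28.1 to 54.6 in paced hearts. None of the 3 was tested. In each of them the paced hearts lay below the controls, as they did in 22.6% of all tested genes. In DNAJB13 the Dobermans lay above every control and the Boxers below every control, while in DNAJC17 and DNAJC30 both groups overlapped the controls.

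Between the breeds with DCM the pathway lists held further differences. FKBP1B, which steadies the calcium release channel of heart muscle, read 2142, 1575 and 1069 in Dobermans, 179.9, 173, 128 and 126 in Boxers and 2138, 2989 and 120.5 in controls, and was higher in Dobermans than in Boxers by 3.23 ± 0.81 (adjusted p = 0.0118). PPIL2, a nuclear isomerase with ubiquitin ligase activity, was higher by 0.98 ± 0.21 (adjusted p = 0.00641), and SEC61B, of the protein channel of the reticulum, was lower, with -1.13 ± 0.25 (adjusted p = 0.00706). PPIL1 and PPIL3, isomerases of the spliceosome, were lower, with -1.49 ± 0.53 (adjusted p = 0.0442) and -1.05 ± 0.38 (adjusted p = 0.0462).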
